A study of Mus musculus with 14 samples.

Results

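Lyst, Rab27a, Rab27b, Unc13d, Stxbp2, Stx11 and Ap3b1 form the granule docking and secretion machinery described here, the proteins with which blood cells sort, dock and release their secretory granules. The members were chosen by name, as Lyst and the Rab27 genes with their partners in granule release, and every probe set annotated with 1 of these symbols alone was taken. This gave 13 probe sets for 5 of the 7 genes, out of 22626 probe sets for 12393 genes on the array. No probe set is named for Unc13d or Stx11 alone, and both genes are not analysed here. Lyst was selected on its Instigator and Matrigel values, where it had already stood among the top genes, and both Rab27 genes were named with it. The values of these 3 genes are therefore given as descriptions with no test.

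Expression was measured on 14 Affymetrix mouse arrays in bone marrow cells sorted by flow cytometry as positive for Sca1 and negative for cKit. The Instigator mice carried a BPLER tumour (5 arrays), the Non-instigator mice carried a PC3 tumour (5 arrays) and the Matrigel mice carried a tumour-free implant (4 arrays). BPLER is a transformed human mammary epithelial line and PC3 a human prostate cancer line. Matrigel is a basement membrane extract, and an instigating tumour is one that stimulates other tumours at a distance in the same host. The tumour groups were matched for tumour size. Strain, age, sex and any allele of the mice are not given in the labels, and each tumour type is 1 line. The labels do not say whether separate animals gave the arrays, so errors and p-values describe the spread among these samples, part of which may be technical. The array titled Instigator 5 carries a description that names the PC3 tumour, while its title and source name BPLER. It was kept with the Instigator arrays, and values with it moved are given where they bear on a member. Levels are log2 of the deposited intensity, and differences are on the same log2 scale, so that 1 is a doubling.

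Granules of the lysosome family are built by sorting proteins, brought to the plasma membrane along the cytoskeleton, docked there, primed and fused. Lyst, a large BEACH domain protein, sets granule size and number, and its loss causes Chediak-Higashi syndrome in people and the beige coat in mice. Ap3b1, a subunit of the AP-3 adaptor, sorts cargo to these granules, and its loss causes a form of Hermansky-Pudlak syndrome. Rab27a and Rab27b are small GTPases that recruit effector proteins to the granule surface for docking, and loss of Rab27a causes Griscelli syndrome. Unc13d primes docked granules, and Stx11 is a SNARE of the target membrane held by the Munc18 protein Stxbp2. Loss of Unc13d, Stx11 or Stxbp2 causes familial haemophagocytic lymphohistiocytosis in people. Neutrophils, natural killer cells, cytotoxic T cells, mast cells and platelets all use parts of this machinery.

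RefSeq promoters of assembly GRCm38.p6, each running from 250 bases before to 50 after an annotated start, were found for 5 of the 7 genes, with 6 promoters in all. CACGTG, the palindromic E-box core that the TFE3 and MITF family of lysosome and granule regulators can bind, was searched on both strands. The promoters of Lyst and Stxbp2 are printed because they begin and end the pathway among the measured genes and differ in this motif, which stands in capitals. The Lyst promoter lies at chr13:13590159-13590458 and the Stxbp2 promoter at chr8:3630859-3631158, both on the plus strand.
Lyst promoter: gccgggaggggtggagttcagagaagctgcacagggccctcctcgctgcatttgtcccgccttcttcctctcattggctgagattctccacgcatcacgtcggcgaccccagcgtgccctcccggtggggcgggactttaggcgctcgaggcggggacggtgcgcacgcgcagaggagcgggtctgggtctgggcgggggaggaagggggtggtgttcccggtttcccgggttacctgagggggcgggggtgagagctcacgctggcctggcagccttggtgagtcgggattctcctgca
Stxbp2 promoter: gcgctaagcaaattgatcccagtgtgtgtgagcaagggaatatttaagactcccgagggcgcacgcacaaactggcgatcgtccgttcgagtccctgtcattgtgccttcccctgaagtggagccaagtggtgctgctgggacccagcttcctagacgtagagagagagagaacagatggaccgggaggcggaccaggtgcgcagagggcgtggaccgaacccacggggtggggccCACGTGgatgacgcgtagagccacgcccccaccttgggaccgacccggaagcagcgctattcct
Stxbp2 holds the motif once, with its first base at -14 relative to the start. It is also at base 5 of 1 of the 2 Rab27a promoters, whereas those of Lyst, Ap3b1 and Stx11 do not hold it in this window. Of 32851 promoters of the same length, 2349 (7.15%) hold CACGTG. The related CATGTG, which 14.2% of all promoters hold, is in 0 of the 6. The match is a property of these letters, and binding was not measured.

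Among the measured members, Lyst was higher in both tumour groups than in Matrigel, and Rab27b was lower in Instigator than in Non-instigator arrays. Lyst and Rab27b showed these differences at the probe set with the highest signal of each gene, while their dimmer probe sets differed by 0.10 or less. Rab27a, Stxbp2 and Ap3b1 overlapped between the groups in all 3 comparisons at all 8 of their probe sets. In bulk cells, fewer cells of a type and less RNA per cell cannot be told apart.

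No member passed the test across all probe sets. With limma and Benjamini-Hochberg adjustment, 0 of the 13 probe sets were called at an adjusted p under 0.05 in any comparison, where 0% of all 22626 probe sets were called. For Instigator against Matrigel, 1 of the 13 (Lyst) was higher and 0 were lower at an unadjusted p under 0.05, where 3.27% and 7.0% of all probe sets were. Groups without overlap were seen for 1 higher (Lyst) and 0 lower, against a background of 1.02% and 1.68%. Without the Instigator 4 and Matrigel 3 arrays, described below, 1 was higher and 1 lower at that p. Of all 22626 probe sets, 784 and 768 were. In that smaller set 1 was higher and 1 lower without overlap, against 4.34% and 2.86%. For Non-instigator against Matrigel, 2 of the 13 (Lyst and Rab27b) were higher and 0 lower at that p, against 0.601% and 1.51%. Here 1 (Lyst) did not overlap and was higher and 0 were lower, against 0.287% and 0.610%. Without those arrays 1 of the 13 was higher and 0 lower at that p, where 223 and 230 of all probe sets were. Without overlap, 1 was then higher and 0 lower, against 0.897% and 0.813%. For Instigator against Non-instigator, 0 were higher and 1 (Rab27b) was lower at that p, against 2.24% and 3.36%, and the same gene was the 1 without overlap, against 0.751% higher and 0.446% lower. Without those arrays 0 were higher and 1 lower at that p, where 953 and 763 of all probe sets were. Without overlap, 1 was then higher and 1 lower, against 1.82% and 0.703%. Since Lyst and both Rab27 genes were named with results known, nothing is read from these counts. The 3 comparisons share arrays, so their values are not independent of each other. The median difference of the 13 was -0.067, -0.0038 and -0.10 in these comparisons, where that of all probe sets was -0.029, -0.042 and 0.018.

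Instigator 4 and Matrigel 3 differed from the other arrays. The 5' minus 3' signal of the beta-actin control was -3.41 on Instigator 4 and between -0.81 and -0.51 elsewhere. That of Gapdh was -4.03 on Instigator 4 and between -1.16 and -0.73 elsewhere. A wide gap of this kind can be a sign of RNA quality. The median probe set of Matrigel 3 was at 7.18, where the medians of all other arrays lay between 6.90 and 7.01. Results that rest on either array are also given without both. Kit, the sort antigen that is measured, ran from 7.36 to 7.93 in Instigator, 6.82 to 7.97 in Non-instigator and 7.18 to 8.05 in Matrigel arrays, whereas Ly6a, the gene of Sca1, is not analysed here because no probe set carries its symbol alone.

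**Figure D1:**
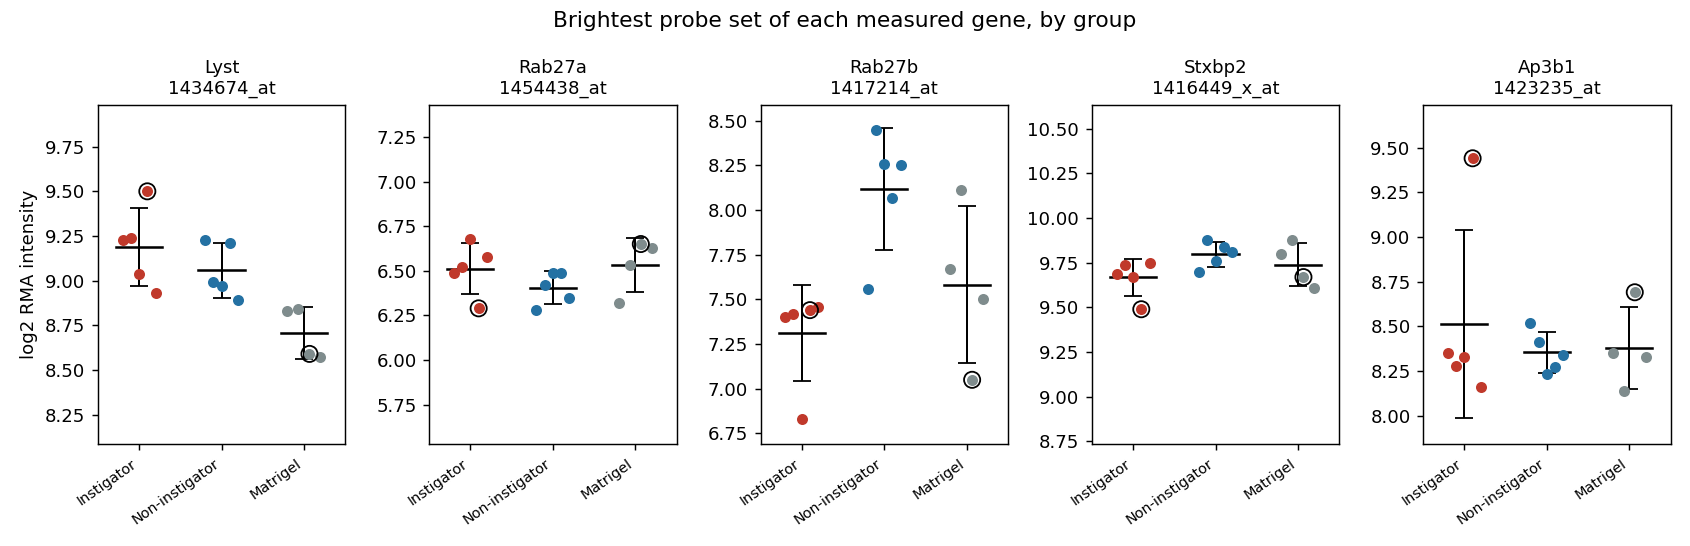
The log2 RMA intensity of the 5 measured genes at the probe set with the highest mean signal, 1 dot per array, with the group mean (bar) and SD (whisker), for Instigator, Non-instigator and Matrigel from left to right; black rings mark Instigator 4 and Matrigel 3. All tumour arrays lie above all Matrigel arrays for Lyst, and all Instigator arrays lie below all Non-instigator arrays for Rab27b.

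Lyst stands at the start of granule formation. At probe set 1434674_at it was at 9.23, 9.24, 9.04, 9.50 and 8.93 on Instigator arrays 1 to 5, at 9.23, 8.99, 8.97, 9.21 and 8.89 on Non-instigator arrays 1 to 5, and at 8.83, 8.84, 8.59 and 8.57 on Matrigel arrays 1 to 4. The lowest tumour array, Non-instigator 5, lay just above the highest Matrigel array, so neither tumour group overlapped Matrigel, and the tumour groups overlapped each other. The means were 9.19 ± 0.22 in Instigator (SD, n = 5), 9.06 ± 0.15 in Non-instigator (SD, n = 5) and 8.71 ± 0.14 in Matrigel arrays (SD, n = 4). Instigator exceeded Matrigel by 0.48 (SE 0.12, 95% CI 0.23 to 0.73), a 1.4-fold difference. Non-instigator exceeded Matrigel by 0.35 (SE 0.12, 95% CI 0.10 to 0.60). Instigator and Non-instigator differed by 0.13 (SE 0.11, 95% CI -0.11 to 0.37), less than the SD of 0.22 within the Instigator arrays. Without Instigator 4, the highest of the 14 arrays, and Matrigel 3 the differences were 0.36, 0.31 and 0.05, and neither tumour group overlapped Matrigel. In this smaller set, 4.34% of all probe sets were higher without overlap for Instigator minus Matrigel, where 1.02% were with all arrays. For Non-instigator minus Matrigel the shares were 0.897% and 0.287%. With Instigator 5 counted as Non-instigator the differences were 0.54, 0.33 and 0.21, and again neither tumour group overlapped Matrigel.

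The other Lyst probe sets did not show this pattern. At 1425973_at the arrays ran from 5.52 to 6.14 in Instigator, 5.71 to 6.09 in Non-instigator and 5.60 to 6.31 in Matrigel, and Instigator minus Matrigel was -0.10 (SE 0.15). At 1421384_at they ran from 4.71 to 5.16, 4.81 to 4.95 and 4.75 to 5.08 in the same order, with differences of 0.02, -0.01 and 0.03 in the 3 comparisons. All groups overlapped at both. Both are dim on the array, at the percentiles 30.8 and 16.1 of mean signal, where 1434674_at is at 79.6. Across the 14 arrays, 1434674_at correlated with 1425973_at at r = -0.44 and with 1421384_at at r = -0.20 (12 arrays without Instigator 4 and Matrigel 3: 0.03 and -0.03). These points share arrays and normalization, and the coefficients are descriptions. Averaged over its 3 probe sets, Lyst differed by 0.13 for Instigator minus Matrigel and 0.11 for Non-instigator minus Matrigel. The Lyst difference is thus a measurement of 1 probe set of 3.

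Markers of several granulocyte types lay mostly on the same side as Lyst. Of 13 listed neutrophil genes, 12 lay above 0 for Instigator minus Matrigel with a median of 0.18, and 9 lay above 0 for Non-instigator minus Matrigel with a median of 0.11. The mean over the list ran from 11.89 to 12.11 in Instigator, 11.59 to 12.08 in Non-instigator and 11.58 to 11.89 in Matrigel arrays. Without Instigator 4 and Matrigel 3, 13 of 13 lay above 0 for Instigator minus Matrigel, with a median of 0.16, and 9 of 13 for Non-instigator minus Matrigel, with a median of 0.06. Mast cell and basophil markers lay above 0 in 7 of 9 genes for Instigator minus Matrigel (median 0.29) and in 8 of 9 for Non-instigator minus Matrigel (median 0.34), and without those arrays the medians were 0.13 and 0.20. Eosinophil markers lay above 0 in 4 of 6 (median 0.30) and 6 of 6 (median 0.34), and without those arrays in 2 of 6 (median -0.10) and 6 of 6 (median 0.17). No defining neutrophil marker was near the bottom of the array: Mpo and S100a9 averaged 13.21 and 13.73 in Instigator arrays, against 13.12 and 13.64 in Matrigel arrays. The part of these cells in the Lyst difference was not tested.

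Ap3b1, the adaptor subunit that sorts granule cargo, had its extreme array, Instigator 4, at opposite ends in its 2 probe sets. At 1423235_at it was at 8.35, 8.28, 8.33, 9.44 and 8.16 in Instigator, 8.52, 8.41, 8.23, 8.27 and 8.34 in Non-instigator, and 8.35, 8.14, 8.69 and 8.33 in Matrigel arrays. Instigator 4 was the highest of the 14, and all other arrays lay within 8.14 to 8.69. The group means were 8.51 ± 0.53, 8.35 ± 0.11 (SD, n = 5 each) and 8.38 ± 0.23 (SD, n = 4). Instigator minus Matrigel was 0.13 (SE 0.21, 95% CI -0.31 to 0.58, limma adjusted p = 0.818). Instigator minus Non-instigator was 0.15 (SE 0.20, limma adjusted p = 0.889), and it was -0.08 without Instigator 4 and Matrigel 3. Non-instigator minus Matrigel was -0.02 (SE 0.21, 95% CI -0.47 to 0.43, limma adjusted p = 0.996).

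At 1450915_at the same gene was at 6.73, 7.19, 7.98, 6.46 and 8.02 in Instigator, 7.56, 7.52, 7.53, 7.68 and 8.03 in Non-instigator, and 7.16, 7.81, 8.04 and 7.75 in Matrigel arrays. Here Instigator 4 was the lowest of the 14, and the Instigator arrays spanned more than either other group. The mean was 7.28 ± 0.71 in Instigator, against 7.66 ± 0.22 in Non-instigator and 7.69 ± 0.37 in Matrigel arrays (SD, n = 5, 5 and 4). Instigator minus Matrigel was -0.41 (SE 0.29, 95% CI -1.03 to 0.20, limma adjusted p = 0.606). The 2 probe sets correlated at r = -0.55 over 14 arrays and at -0.29 over the 12 without Instigator 4 and Matrigel 3. No order of the groups was resolved for Ap3b1 at either probe set.

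**Figure D2:**
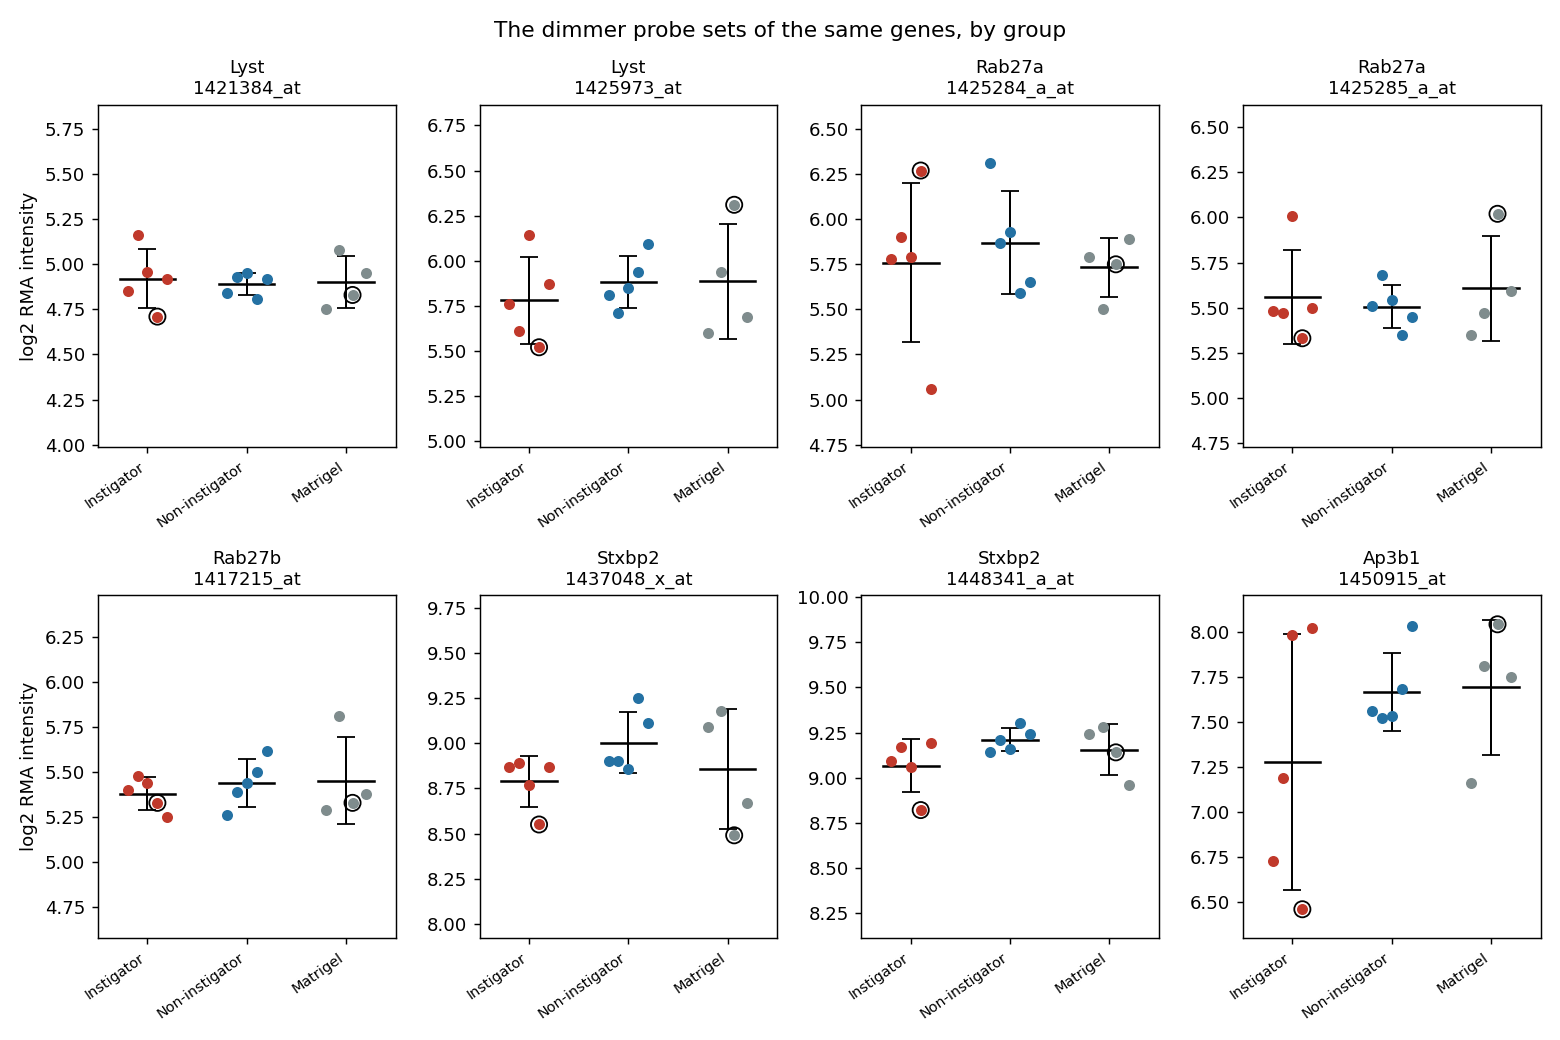
The log2 RMA intensity of the 8 dimmer probe sets of the same genes, 1 dot per array, with the group mean (bar) and SD (whisker) and black rings on Instigator 4 and Matrigel 3. All groups overlap in every panel, and the Instigator arrays of Ap3b1 at 1450915_at spread from 6.46 to 8.02.

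Rab27a, the GTPase that docks granules in cytotoxic cells and neutrophils, was nearly level across the groups with all arrays kept. Its brightest probe set, 1454438_at, is itself rather dim, at the percentile 41.4 of mean signal. This limits what its level values say of the gene. At 1454438_at it was at 6.49, 6.52, 6.68, 6.29 and 6.58 in Instigator, 6.28, 6.42, 6.49, 6.49 and 6.35 in Non-instigator, and 6.32, 6.53, 6.65 and 6.63 in Matrigel arrays. All 3 groups overlapped. The means were 6.51 ± 0.14, 6.41 ± 0.09 (SD, n = 5 each) and 6.53 ± 0.15 (SD, n = 4). Instigator minus Matrigel was -0.02 (SE 0.10, 95% CI -0.23 to 0.18), Non-instigator minus Matrigel was -0.13 (SE 0.10, 95% CI -0.33 to 0.08), and Instigator minus Non-instigator was 0.10 (SE 0.09, 95% CI -0.09 to 0.30). With all arrays, each difference was smaller than the SD of 0.15 within the Matrigel arrays. Without Instigator 4 and Matrigel 3 the differences were 0.07, -0.09 and 0.16 in the same order, the last with SE 0.08. Instigator then lay above Non-instigator without overlap, as 1.82% of all probe sets did. The margin was small, with the lowest Instigator and the highest Non-instigator array both at 6.49.

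The dimmer Rab27a probe sets ran from 5.06 to 6.27 in Instigator, 5.59 to 6.31 in Non-instigator and 5.50 to 5.89 in Matrigel arrays at 1425284_a_at. At 1425285_a_at they ran from 5.33 to 6.01, 5.35 to 5.68 and 5.35 to 6.02 in the same groups. Their differences lay between -0.11 and 0.14 over the 3 comparisons. The brightest set correlated with 1425285_a_at at r = 0.67 and with 1425284_a_at at r = -0.48 over the 14 arrays, so the probe sets of this gene did not rank the arrays alike.

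Rab27b, the close relative of Rab27a that acts in platelets, mast cells and other secretory cells, showed the widest group difference among the members at their brightest probe sets. At 1417214_at it was at 7.40, 7.42, 6.83, 7.44 and 7.46 in Instigator, 7.56, 8.45, 8.26, 8.07 and 8.25 in Non-instigator, and 7.67, 8.11, 7.05 and 7.50 in Matrigel arrays. All Instigator arrays lay below all Non-instigator arrays, with Instigator 5 and Non-instigator 1 nearest to each other, and Matrigel overlapped both. The means were 7.31 ± 0.27 in Instigator (SD, n = 5), 8.12 ± 0.34 in Non-instigator (SD, n = 5) and 7.58 ± 0.44 in Matrigel arrays (SD, n = 4). Instigator minus Non-instigator was -0.81 (SE 0.20, 95% CI -1.23 to -0.39), or 1.75-fold lower. Non-instigator exceeded Matrigel by 0.54 (SE 0.21, 95% CI 0.09 to 0.98), and Instigator minus Matrigel was -0.27 (SE 0.21, 95% CI -0.72 to 0.18).

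Without Instigator 4 and Matrigel 3, Instigator minus Non-instigator was -0.84, and Instigator minus Matrigel was -0.48, with no overlap between Instigator and Matrigel either. In this smaller set, 0.703% and 2.86% of all probe sets were lower without overlap in these comparisons, where 0.446% and 1.68% were with all arrays. Non-instigator minus Matrigel was then smaller, at 0.36 (SE 0.20), and those groups overlapped. With Instigator 5 counted as Non-instigator, Non-instigator minus Matrigel was 0.43 and Instigator minus Non-instigator was -0.74, and the highest Instigator array (7.44) lay just below the lowest Non-instigator array (7.46). The other Rab27b probe set, 1417215_at, was dim and ran from 5.25 to 5.48 in Instigator, 5.26 to 5.62 in Non-instigator and 5.29 to 5.81 in Matrigel arrays. Its Instigator minus Non-instigator difference was -0.06 (SE 0.10), and it correlated with the brighter set at r = 0.45 over the 14 arrays. Averaged over both probe sets, Instigator minus Non-instigator was -0.44.

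For Instigator minus Non-instigator, markers of several cell types lay on the same side as Rab27b, those of natural killer and cytotoxic cells among them. Of 12 listed genes 11 are measured, and all 11 lay below 0 for Instigator minus Non-instigator, with a median of -0.42, 6 lower at an unadjusted p under 0.05 and 1 lower without overlap between the groups, where 3.36% and 0.446% of all probe sets were. All 11 lay above 0 for Non-instigator minus Matrigel, with a median of 0.20. The mean over the list ran from 8.94 to 9.71 in Instigator, 9.45 to 10.09 in Non-instigator and 9.36 to 9.78 in Matrigel arrays. For Instigator minus Non-instigator, plasma cell markers lay below 0 in 6 of 6 genes (median -0.47), T cell markers in 11 of 11 (median -0.22), B lineage markers in 8 of 9 (median -0.32) and dendritic cell markers in 8 of 10 (median -0.26). Without Instigator 4 and Matrigel 3 the medians of these lists were -0.42, -0.33, -0.34 and -0.16, and that of the natural killer list was -0.40. For Non-instigator minus Matrigel with all arrays, B lineage markers lay below 0 in 7 of 9 (median -0.23), on the other side from Rab27b. Dendritic cell markers also did so, in 8 of 10 (median -0.26). Plasma cell markers lay above 0 in 4 of 6 (median 0.03) and T cell markers in 9 of 11 (median 0.05). The defining natural killer genes were well above the bottom of the array, with Gzma at 12.29 in Instigator against 12.56 in Non-instigator arrays, and Ncr1 at 9.73 against 10.33. Mast cell and basophil markers (9 genes) ran from 6.86 to 7.19 in Instigator, 6.77 to 7.38 in Non-instigator and 6.55 to 6.99 in Matrigel arrays, and megakaryocyte markers (7 genes) from 5.70 to 6.07, 5.83 to 6.51 and 5.95 to 6.52. The part of any of these cells in the Rab27b difference was not tested.

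Stxbp2, the Munc18 protein that holds the fusion SNARE, was the member whose probe sets ranked the arrays most alike, with r of 0.83, 0.94 and 0.80 between its 3 probe sets over 14 arrays. At 1416449_x_at it was at 9.69, 9.74, 9.67, 9.49 and 9.75 in Instigator, 9.70, 9.88, 9.76, 9.84 and 9.81 in Non-instigator, and 9.80, 9.88, 9.67 and 9.61 in Matrigel arrays. The groups overlapped, and Instigator 4 was the lowest of the 14. The means were 9.67 ± 0.11, 9.80 ± 0.07 (SD, n = 5 each) and 9.74 ± 0.12 (SD, n = 4). Instigator minus Non-instigator was -0.13 (SE 0.08, 95% CI -0.29 to 0.04, limma adjusted p = 0.813), and it was -0.08 without Instigator 4. Instigator minus Matrigel was -0.07 (SE 0.08, 95% CI -0.24 to 0.11, limma adjusted p = 0.755), or -0.02 without Instigator 4, and Non-instigator minus Matrigel was 0.06 (SE 0.08, 95% CI -0.11 to 0.24, limma adjusted p = 0.986).

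The other Stxbp2 probe sets gave differences of the same sign. At 1448341_a_at, Instigator ran from 8.82 to 9.19, Non-instigator from 9.14 to 9.30 and Matrigel from 8.96 to 9.28, with Instigator minus Non-instigator at -0.14 (SE 0.09). At 1437048_x_at they ran from 8.55 to 8.89, 8.86 to 9.25 and 8.49 to 9.18, with Instigator minus Non-instigator at -0.21 (SE 0.13). All groups overlapped at both probe sets. The suffix x marks probe sets whose probes can also pair with other transcripts.

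**Figure D3:**
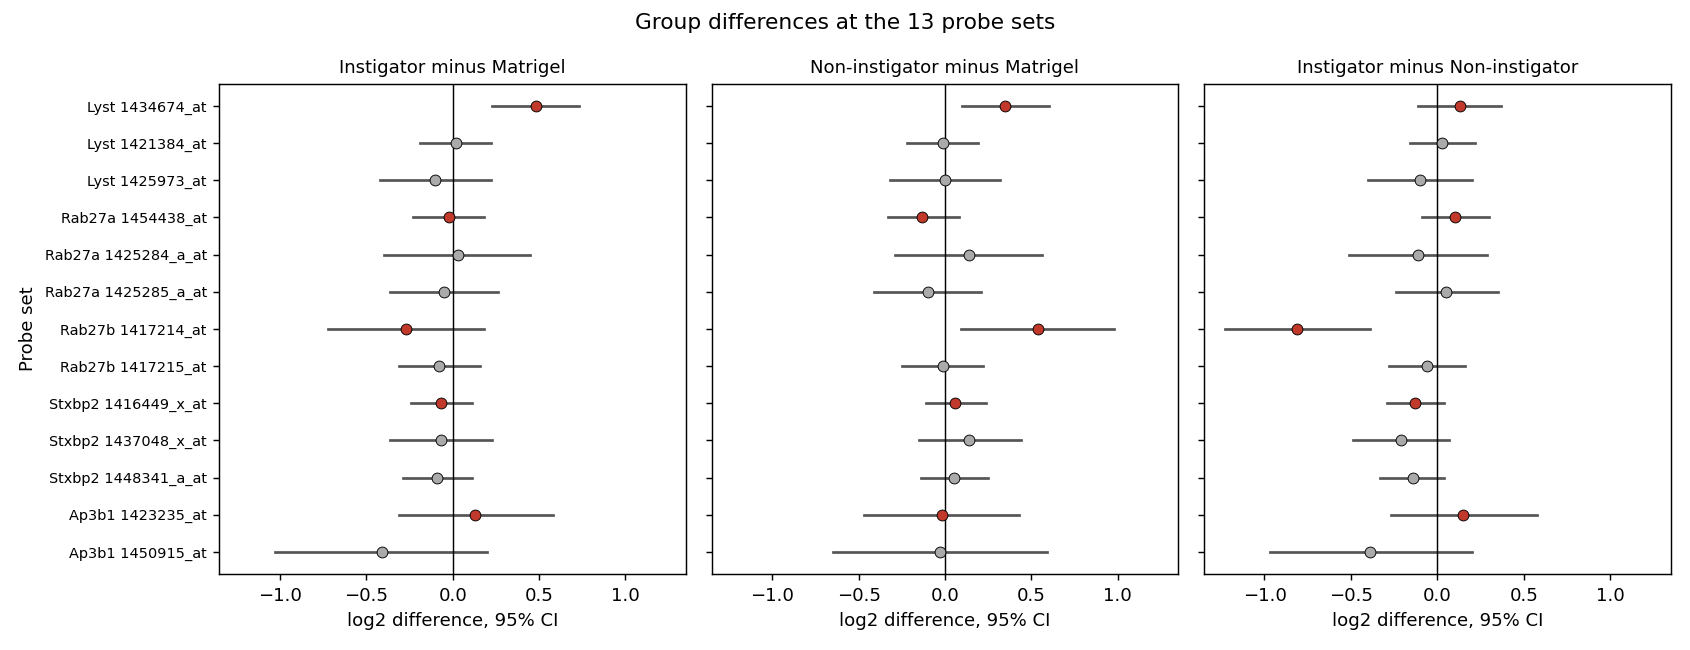
Differences between group means at the 13 probe sets on the log2 scale, with 95% confidence intervals as lines; red dots are the probe set with the highest mean signal of each gene and grey dots the others. Lyst 1434674_at lies at 0.48 and 0.35 in the comparisons with Matrigel, and Rab27b 1417214_at at -0.81 for Instigator minus Non-instigator and 0.54 for Non-instigator minus Matrigel; for Lyst and the Rab27 genes, chosen with results known, the intervals show the spread and are no test.

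Among the 10 pairs of measured members, Rab27b and Stxbp2 had a Pearson r of 0.68 and a Spearman rho of 0.77 over the 14 arrays, given as a description. The coefficient was 0.64 without the arrays farthest from the median of Rab27b, Non-instigator 2 and Non-instigator 3, and 0.76 without Instigator 4 and Matrigel 3. For deviations from the group means it was 0.53. Stxbp2 and Ap3b1, the pair without Lyst or a Rab27 gene, gave r = -0.72 (two-sided permutation p = 0.0064, adjusted over the 10 pairs 0.0336), but rho = -0.48 (permutation p = 0.0874, adjusted 0.291), with 100000 permutations. The adjustment took in the pairs chosen with results known. The value of 0.0336 takes its size from such a pair, Rab27b and Stxbp2, so no call is made from it. For deviations from the group means the r of Stxbp2 and Ap3b1 was -0.74. It was -0.47 without Instigator 4 and Matrigel 4 and -0.25 without Instigator 4 and Matrigel 3, so the size of the relation rests on those arrays. Ap3b1 was taken here at 1423235_at, where Instigator 4 was the highest array. At 1450915_at Instigator 4 was the lowest, as it was for Stxbp2, and the pair was not computed there. The other 8 pairs ran from r = -0.51 for Lyst and Rab27a to r = 0.43 for Lyst and Ap3b1, and Lyst and Rab27b had r = -0.02, as descriptions. All pairs share the arrays and their normalization.

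**Figure D4:**
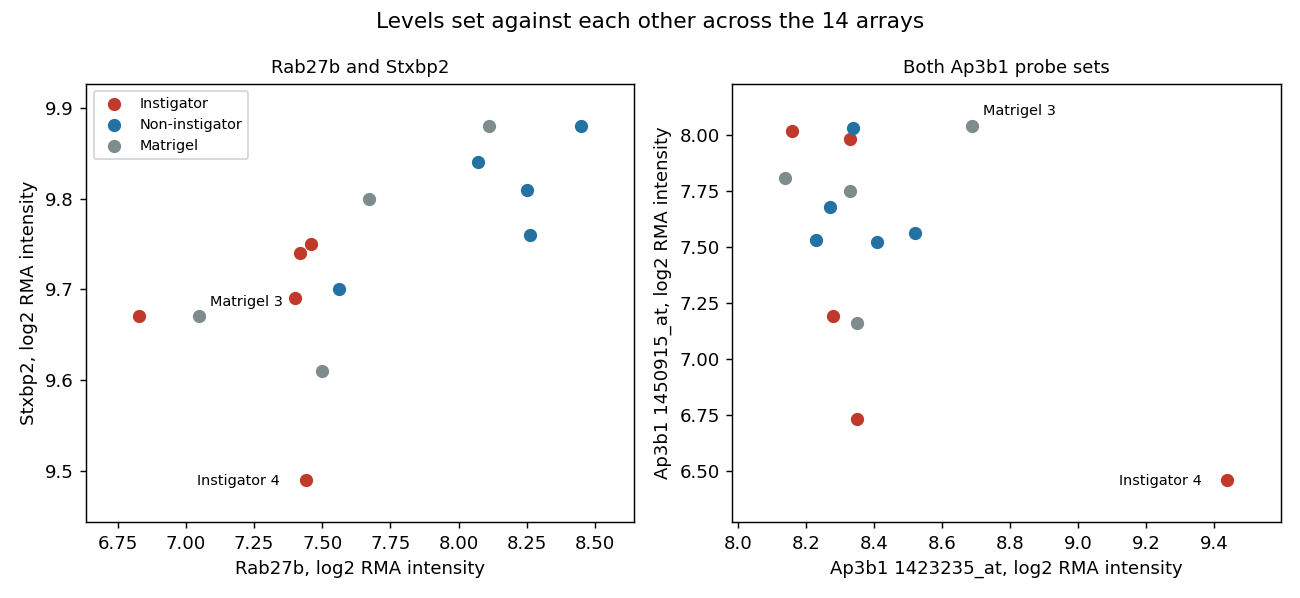
Left, log2 RMA intensity of Stxbp2 (y axis) against that of Rab27b (x axis) on 14 arrays; right, the Ap3b1 probe sets against each other; 1 dot per array, coloured by group. On the left the Non-instigator arrays lie to the upper right of most Instigator arrays, and on the right Instigator 4 lies alone at 9.44 on the x axis and 6.46 on the y axis.

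A wider list of 79 genes in 7 roles of granule sorting, docking and fusion put the members in their pathway, and 64 of these genes are measured. For Instigator minus Matrigel 34 lay above 0 and 30 below, with a median of 0.03. In this comparison 0 were called by limma with Benjamini-Hochberg adjustment, and 5 (7.81%) were higher and 1 (1.56%) lower at an unadjusted p under 0.05. For Non-instigator minus Matrigel 29 lay above and 35 below, with a median of -0.03, 0 called, and 2 (3.12%) higher and 0 lower at that p. For Instigator minus Non-instigator 39 lay above and 25 below, with a median of 0.04, 0 called, and 1 (1.56%) higher and 1 lower. The background shares are those given for all probe sets.

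On the list of BLOC and HPS sorting complexes, which like AP-3 build lysosome-related organelles, 12 of 17 genes are measured. The list also holds Rabggta, Vps33a, Vps33b and Vipas39, which are not part of these complexes. Of the 12 genes, 10 lay above 0 for Instigator minus Matrigel with a median of 0.14. They include Dtnbp1, dysbindin of the BLOC-1 complex, at 7.89 ± 0.32 in Instigator against 7.48 ± 0.15 in Matrigel arrays, a difference of 0.41 (SE 0.15, limma adjusted p = 0.442). Bloc1s4, another BLOC-1 subunit, was at 8.01 ± 0.14 in Instigator against 7.70 ± 0.17 in Matrigel arrays, a difference of 0.31 (SE 0.12, limma adjusted p = 0.442). Vipas39, a partner of Vps33b in granule formation, differed by 0.60 (SE 0.30, limma adjusted p = 0.509), with an Instigator SD of 0.81, and by 0.22 without Instigator 4 and Matrigel 3. Without those arrays Dtnbp1 differed by 0.21 and Bloc1s4 by 0.32, and 10 of 12 genes lay above 0 with a median of 0.11. For Non-instigator minus Matrigel 6 of the 12 lay above 0, with a median of -0.01. Of the other AP-3 subunits, 6 are measured and with all arrays 0 had an unadjusted p under 0.05 in any comparison, as did 0 of the 6 measured BEACH domain relatives of Lyst. Without Instigator 4 and Matrigel 3, the AP-3 subunit Ap3s2 passed that p for Instigator minus Non-instigator. Its difference was then 0.21 (SE 0.08, limma adjusted p = 0.651).

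Of 13 listed effectors and regulators of Rab27, 8 are measured. Tbc1d10b, a Rab27 GTPase-activating protein, was at 8.29 ± 0.55 in Instigator against 7.79 ± 0.27 in Matrigel arrays, a difference of 0.50 (SE 0.22, limma adjusted p = 0.463), and differed by 0.13 without Instigator 4 and Matrigel 3. Myo5a, the myosin that carries Rab27a-bound granules along actin, was at 8.31 ± 0.16 in Instigator against 7.97 ± 0.34 in Non-instigator arrays, a difference of 0.34 (SE 0.18, limma adjusted p = 0.813). Sytl1, a synaptotagmin-like Rab27 effector, differed by 0.20 (SE 0.12, limma adjusted p = 0.576) for Instigator minus Matrigel, and by 0.12 without Instigator 4 and Matrigel 3. Rab7, the late endosome GTPase and 1 of 9 related Rab genes, was at 11.99 ± 0.05 in Instigator against 11.73 ± 0.22 in Matrigel arrays, a difference of 0.26 (SE 0.09, limma adjusted p = 0.439). It differed by 0.21 (SE 0.09) for Non-instigator minus Matrigel. Without Instigator 4 and Matrigel 3 these differences were 0.17 and 0.10.

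The fusion genes gave values in both directions. All 18 genes on the list of SNARE proteins and their disassembly factors are measured, with 7 above 0 for Instigator minus Matrigel and a median of -0.09. The list also holds Cplx2, a complexin that is neither a SNARE nor a disassembly factor. Snap29, a SNARE of the SNAP25 family, was at 8.40 ± 0.27 in Instigator against 8.84 ± 0.19 in Matrigel arrays, a difference of -0.44 (SE 0.14, limma adjusted p = 0.439) that was -0.25 without Instigator 4 and Matrigel 3. Napa, the alpha-SNAP adaptor that helps to take SNARE complexes apart, was at 8.40 ± 0.10 in Instigator against 8.06 ± 0.30 in Matrigel arrays, a difference of 0.34 (SE 0.13, limma adjusted p = 0.442) that was 0.20 without them. For Instigator minus Non-instigator, Stx7, a syntaxin of late endosomes, differed by 0.29 (SE 0.10, limma adjusted p = 0.813). Vamp2, a vesicle SNARE, differed by -0.62 (SE 0.29, limma adjusted p = 0.813), and by -0.29 without Instigator 4 and Matrigel 3. The list for the Munc13 and Munc18 families, to which Unc13d and Stxbp2 belong, has 5 of 8 genes measured, and 0 had an unadjusted p under 0.05 in any comparison. These include Stxbp4, a syntaxin-binding protein that is not itself a Munc18 protein.

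**Figure D5:**
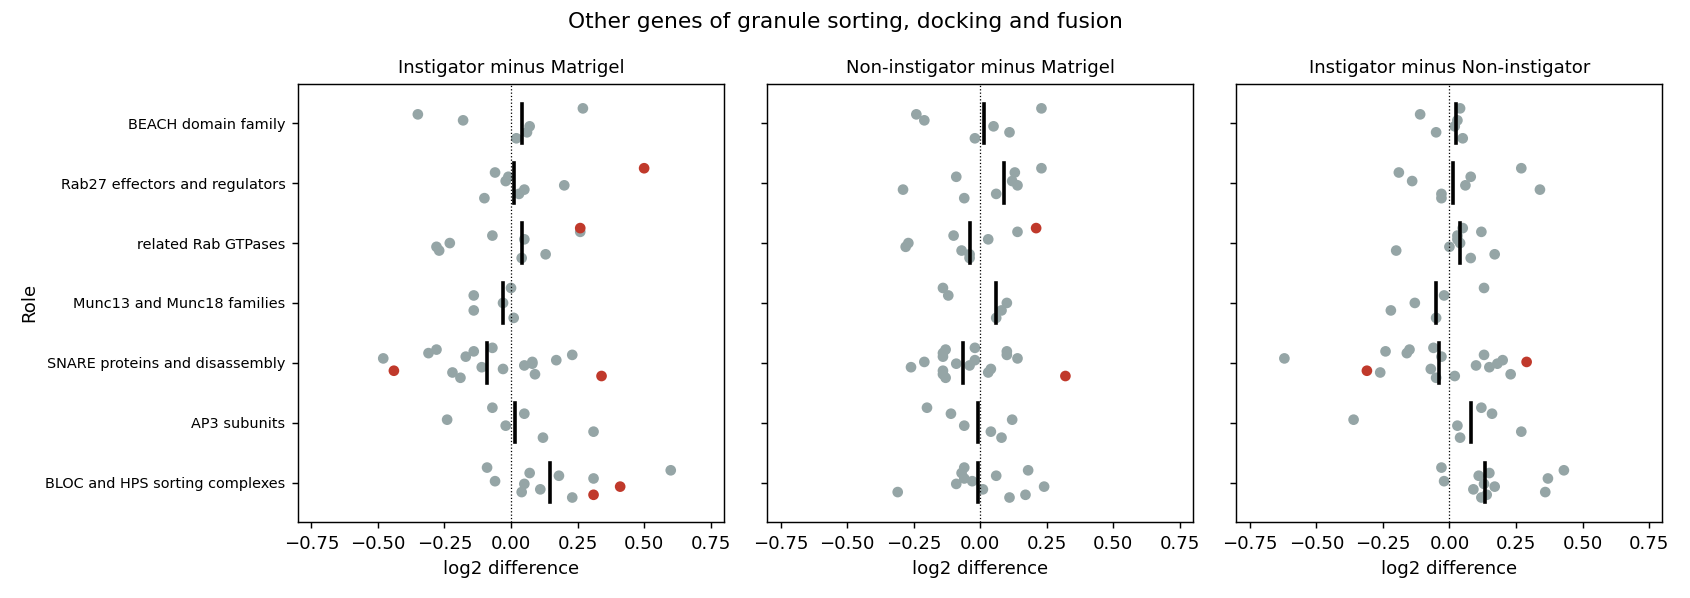
Differences between group means on the log2 scale for the 64 measured genes of the wider list, 1 dot per gene, by role; red dots have an unadjusted limma p under 0.05 and the black bar is the median of the role. The BLOC and HPS medians are 0.14 for Instigator minus Matrigel, -0.01 for Non-instigator minus Matrigel and 0.14 for Instigator minus Non-instigator, and no gene passed adjustment.

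The genes most like Lyst over the 14 arrays, among 12392 others at their brightest probe sets, were Wbp11 (r = 0.90, rho = 0.91), Klhl2 (r = 0.89, rho = 0.82), Lasp1 (r = 0.89, rho = 0.83), Il1r2 (r = 0.88, rho = 0.88) and Stfa3 (r = 0.88, rho = 0.81). Over the 12 arrays without Instigator 4 and Matrigel 3 their r was 0.86, 0.82, 0.78, 0.81 and 0.79. Il1r2, the decoy receptor of interleukin 1, averaged 7.48 in Instigator, 7.42 in Non-instigator and 6.80 in Matrigel arrays, and Stfa3, a stefin protease inhibitor, 9.47, 9.29 and 8.29. The genes most like Rab27a were Col2a1 (r = 0.92), Gsg1 (r = 0.91), Sycn (r = 0.90), Rhox9 (r = 0.88) and Pax4 (r = 0.88), known mainly from cartilage, testis, pancreas and reproductive tissues. Col2a1, a cartilage collagen, averaged 6.57 in Instigator, 6.46 in Non-instigator and 6.58 in Matrigel arrays. Those most like Rab27b, a search added with its values known, were St3gal6 (r = 0.93), Gps2 (r = 0.93), Ctla2a (r = 0.91), Map1lc3b (r = 0.88) and Crybg1 (r = 0.87). Ctla2a, a cysteine protease inhibitor, averaged 10.95 in Instigator, 11.51 in Non-instigator and 11.05 in Matrigel arrays. All these genes share the arrays and their normalization with the members, and the coefficients are descriptions.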

How the data were processed

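Gene expression was measured on 14 Affymetrix mouse arrays, 1 per sorted bone marrow sample, labelled with the NuGen Ovation biotin system per the labels' protocols. The deposited intensity values are linear. They were made by the authors with RMA, from the affy package in R 2.11.0, per the submitters' processing notes. RMA corrects background, normalizes between arrays and summarises probes, and the sources used here do not give its options. RMA evens out the arrays, so changes of all genes at once are not seen. Log2 was taken here of the deposited intensity values, with no further normalization.

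Of 22690 probe sets, 64 array controls were left out. The platform annotation gives 1 symbol for 20380 of the rest, several for 691 and none for 1555, and only those with 1 symbol were named. Where 1 value per gene was needed, the probe set of highest mean signal was taken. Groups came from the sample titles. Limma 3.58.1 in R 4.3.3 fitted all 14 arrays in 1 model with group as the factor (lmFit, contrasts.fit, eBayes), and Benjamini-Hochberg adjustment ran over 22626 probe sets, with a call at an adjusted p under 0.05. The fit was tested on simulated data. The r and rho of the member pairs used 100000 permutations, and the other correlations had no test. Python 3.11.15 with numpy 2.4.6, scipy 1.17.1 and matplotlib 3.10.9 made the summaries and plots. The number of arrays limits the precision.

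The text names every member at every probe set, up to 3 genes per pathway role and comparison by smallest unadjusted p, and the 5 genes most like Lyst and Rab27a. The members and lists were chosen with earlier results of these data known. Alternatives were the compared groups alone, a replicate block, each array left out, Instigator 4 and Matrigel 3 left out, Instigator 5 moved, array weights, an intensity trend, median centring, quantile normalization, the brighter probe sets, and averaging all probe sets of a gene. Same-numbered arrays of different groups deviated from their group means with r of -0.20 to 0.27 (median 0.05, 13 pairs, 5 over 0.1), against -0.39 to 0.32 for the other 52 pairs (median -0.02), so the numbers were not taken as pairs.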

Additional observations from a re-analysis of the deposited data

Results flagged for a closer look

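At 13 probe sets in 3 groups, 39 sets of arrays were searched for an array far from the rest of its group by Dixon's criterion at 95%. The search found 5, where chance gives about 1 in 20 for independent sets. These sets share arrays and genes and are not independent, so the count is no test. Instigator 3 was the lowest Instigator array for Rab27b at 1417214_at, with 6.83 against 7.40 on the next, and the highest for Rab27a at 1425285_a_at, with 6.01 against 5.50. Instigator 4, the array with the wide 5' minus 3' gap of the control probe sets, was the highest Instigator array for Ap3b1 at 1423235_at, with 9.44 against 8.35, and the lowest for Stxbp2 at 1416449_x_at, with 9.49 against 9.67. Matrigel 2 was the highest Matrigel array for Rab27b at 1417215_at, with 5.81 against 5.38, where the gap was only just past the critical value.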

How the results depend on the processing

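Lyst kept its sign in all 24 alternatives of each comparison, with 0.40 to 0.54 for Instigator minus Matrigel, 0.31 to 0.39 for Non-instigator minus Matrigel and 0.05 to 0.19 for Instigator minus Non-instigator when each array was left out. The mean of its 3 probe sets gave only 0.13 and 0.11 for the comparisons with Matrigel. Rab27b kept its sign in all 24 for Instigator minus Non-instigator, from -0.95 to -0.44, the last as the mean of both probe sets. Stxbp2 for Instigator minus Matrigel was 0.01 after centring on each array's median. Ap3b1 changed sign in all comparisons. For Instigator minus Matrigel it was -0.10 to 0.24 with each array left out (-0.10 without Instigator 4) and -0.14 as the mean of its probe sets. For Non-instigator minus Matrigel it was 0.01 after quantile normalization, 0.03 after centring, 0.06 with array weights, 0.08 without Instigator 4 and Matrigel 3, and -0.10 to 0.08 with each array left out. For Instigator minus Non-instigator it was -0.08 without those 2 arrays, -0.12 as the mean of probe sets, and -0.08 to 0.24 with each array left out. With the replicate block Lyst differed by 0.53, 0.40 and 0.13, Ap3b1 for Non-instigator minus Matrigel by 0.03, and 0 probe sets were called by limma in any comparison (for Instigator minus Matrigel, 862 higher and 1935 lower at an unadjusted p under 0.05). Called probe sets for Instigator minus Matrigel were 1 without Instigator 4 (0 to 1 over the arrays left out) and 1 without Instigator 4 and Matrigel 3, and in neither case a member. The split at an unadjusted p under 0.05 for this comparison, 740 higher and 1584 lower, became 1298 and 1198 after quantile normalization, 1772 and 961 after centring, and 784 and 768 without Instigator 4 and Matrigel 3. The median of all probe sets moved by less than 0.1 under these scalings. Rab27a has no value among the brighter probe sets alone. The causes of these shifts were not tested. Dim probe sets limit what can be said of Rab27a and of the second Rab27b probe set.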

Other observations

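On Instigator 4, 8 of the 13 probe sets of the members took the highest (2) or lowest (6) value of the 14 arrays, where each other array held 0 to 4 such values. Matrigel 3 held 4, with 3 highest and 1 lowest.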
